A study of Mus musculus with 12 samples.

Results

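The 9 genes described here belong to the hypothalamic control of reproduction: the peptide genes Gnrh1, Kiss1, Tac2 and Npvf, the peptide receptor genes Kiss1r and Tacr3, the sex steroid receptor genes Esr1 and Pgr, and the luteinizing hormone subunit gene Lhb. They were chosen by gene symbol, and the array annotation assigned 22 of its 56605 probes to them, out of 27308 gene symbols in all. Of these 22 probes, 14 were tested, among 35230 probes tested over the whole array. Testing required a signal well above the local background in every mouse of at least 1 group.

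Reproduction is driven by neurons that release gonadotropin-releasing hormone (GnRH), encoded by Gnrh1, into the portal blood of the pituitary, where it triggers secretion of luteinizing hormone and follicle-stimulating hormone. Kisspeptin (Kiss1) acts on the receptor Kiss1r of GnRH neurons, and kisspeptin neurons of the arcuate nucleus also make neurokinin B (Tac2), which acts on the receptor Tacr3, and dynorphin (Pdyn). Npvf encodes RF-amide peptides that act on this output. The estrogen receptor alpha (Esr1) and the progesterone receptor (Pgr) carry the feedback of gonadal steroids onto the same circuit. In seasonal mammals melatonin sets this axis to day length, and Asmt encodes the enzyme of the last step of melatonin synthesis.

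Hypothalamus RNA of 12 male mice was hybridized to single-color Agilent arrays, 1 array per mouse and 3 per group. The wild-type control group (WT) and the Asmt-knockout control group (KO) did not swim, and the wild-type exercise group (exercised WT) and the Asmt-knockout exercise group (KE) were trained by daily free-style swimming. All mice carried the C57BL/6 background, the knockout was a homozygous Cas9-made deletion passed on from founder mice that had been backcrossed to wild-type littermates, and the wild-type mice were littermates. The labels give an age of 6 to 7 weeks for every mouse, which the methods give as the age at the start of swimming. C57BL/6 mice are known to make little melatonin even when Asmt is intact, which limits the wild-type groups as a melatonin-proficient control. Asmt has 1 probe, which was not well above background on any of the 12 arrays, so the arrays give no check of the genotype. The labels do not tie the arrays to litters or days, so the p-values below measure the spread between these mice only.

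The arrays lay on 2 slides. KO replicates 1 and 2 shared slide 1 with all WT mice, whereas KO replicate 3 shared slide 2 with the exercised WT and KE mice. The first principal component of the tested probes, with 48.5% of the variance, separated the slides, so exercised WT versus WT and KE versus WT compare different slides, KE versus KO does so in part, and KE versus exercised WT lies within slide 2. Each value below is on the quantile-normalized log2 scale, and a second fit of each difference took the slide as a block. Of 13 hypothalamic marker genes 12 were detected on all 12 arrays, and Sim1 on 9. The precision of every value is limited by the 3 arrays per group. The comparisons with WT share the same 3 WT arrays.

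No member probe met the screening criterion of the study (2-fold or more in either direction, unadjusted p no higher than 0.05) in any of the 6 tests (0 of 14 probes each). Over all tested probes the criterion was met by 2.19% for exercised WT versus WT, 2.74% for KE versus WT, 1.21% for KE versus KO, 0.227% for KO versus WT, 0.25% for KE versus exercised WT and 0.602% for the swimming by genotype interaction. No member probe had an adjusted p under 0.05 either (limma with Benjamini-Hochberg adjustment over all tested probes), as was true of all tested probes in 5 of the 6 tests and of all but 0.0199% in KE versus KO. At an unadjusted p of at most 0.05 there were 1 of 14 member probes in KO versus WT beside 5.47% of all probes, 3 in exercised WT versus WT beside 25.9%, and 2 in KE versus KO beside 21.1%. There were 0 in KE versus exercised WT beside 6.71%, 2 in KE versus WT beside 30.4% and 2 in the interaction beside 7.76%. The KO versus WT probe was that of Lhb.

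The intervals bound what could have been missed. In KO versus WT and in KE versus exercised WT the 95% confidence intervals of the probe with the highest mean signal lay within a 2-fold change in both directions for all 9 genes. In KE versus KO they did so for 8 genes, all but Npvf, and in KE versus WT for 8, all but Gnrh1. In exercised WT versus WT they did so for 9 genes without the slide block and for 7 with it. With the block they also did so for 7 genes in KE versus WT. In the interaction the count was 7 genes with or without the block. The median difference over the 14 member probes was 0.02 in KO versus WT, beside -0.01 over all tested probes. It was -0.07 in exercised WT versus WT beside -0.04, -0.11 in KE versus KO beside -0.04, and -0.04 in KE versus exercised WT beside -0.01.

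**Figure D1:**
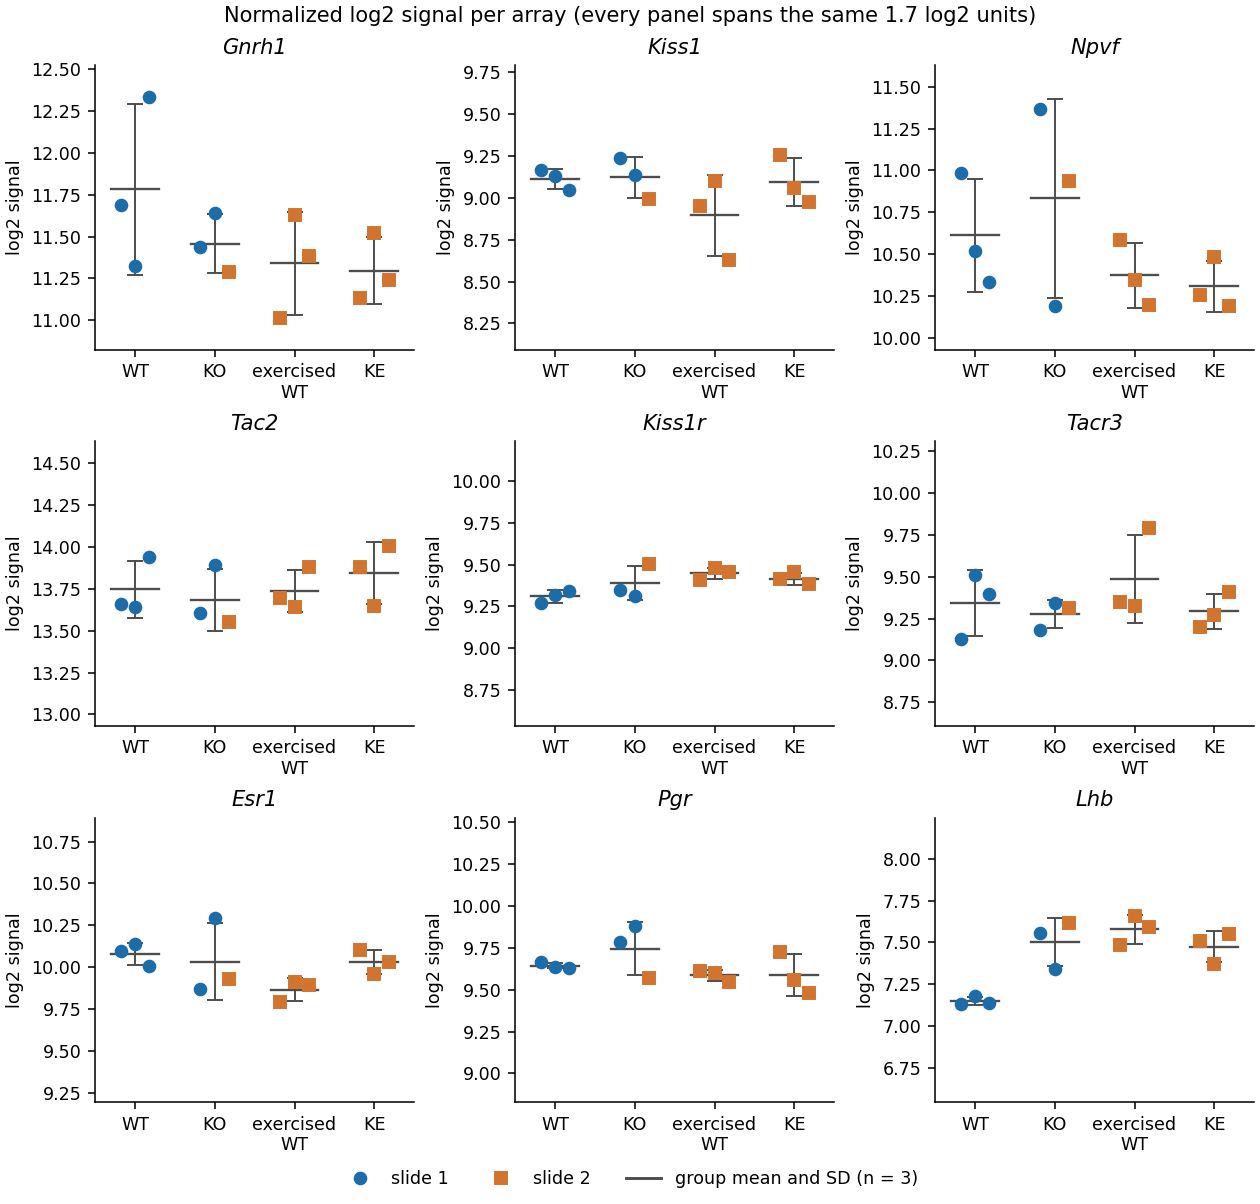
Normalized log2 signal of the probe with the highest mean signal for each of the 9 genes, with 1 point per array, blue circles for slide 1 and orange squares for slide 2, and bars for the mean and SD of 3 arrays. The WT arrays of Lhb lie between 7.13 and 7.18, below all arrays of the other groups, whereas the groups of Gnrh1, Npvf, Tac2 and Tacr3 overlap.

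Gnrh1, the output of the circuit, was detected on all 12 arrays by its probe at chr14:68367373-68367432 (mm9, the build of the array annotation). Its log2 signal was 11.69, 11.33 and 12.33 in WT mice, 11.44, 11.64 and 11.29 in KO mice, 11.01, 11.63 and 11.38 in exercised WT mice and 11.13, 11.52 and 11.24 in KE mice. The groups overlapped, and WT replicate 3 was the highest of all. The order of the means was WT, KO, exercised WT and KE, from 11.78 ± 0.51 to 11.30 ± 0.20 (SD, n = 3), and no step between neighbors exceeded the SD of the groups. The KE versus WT difference was -0.49 (SE 0.24, 95% interval -1.03 to 0.06, adjusted p = 0.203, limma) and -0.24 (SE 0.45) with the slide block. Without WT replicate 3 the KO versus WT difference of Gnrh1 was -0.05 and the exercised WT versus WT difference -0.17, against -0.33 and -0.44 with it. The other Gnrh1 probe, further 5′, was well above background on 3 of 12 arrays and was not tested.

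Kiss1, which encodes kisspeptin, was detected on every array by both of its probes. The probe at chr1:135226240-135226299 (mm9) gave 9.17, 9.13 and 9.05 in WT mice, 9.24, 9.14 and 8.99 in KO mice, 8.95, 9.10 and 8.63 in exercised WT mice and 9.26, 9.06 and 8.98 in KE mice. The groups overlapped, with exercised WT replicate 3 lowest. The exercised WT versus WT difference was -0.22 (SE 0.12, adjusted p = 0.271, limma), and -0.03 (SE 0.21) with the slide block.

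The second Kiss1 probe, at chr1:135225978-135226037, gave 8.07, 7.78 and 7.98 in WT mice, 8.17, 7.97 and 7.94 in KO mice, 7.69, 7.86 and 7.37 in exercised WT mice and 7.80, 7.77 and 7.65 in KE mice. All 3 KE arrays lay below all 3 KO arrays, as was true of 15.4% of tested probes, while exercised WT and WT overlapped. The KE versus KO difference was -0.29 (SE 0.13, unadjusted p = 0.0454, adjusted p = 0.229, limma), where the first probe gave -0.02 (SE 0.12). The exercised WT versus WT difference was -0.31 (SE 0.13, unadjusted p = 0.0348, adjusted p = 0.165, limma). With the slide as a block these differences of the second probe were -0.20 (SE 0.18) and -0.17 (SE 0.23). In KE versus exercised WT, within slide 2, the Kiss1 probes gave 0.20 (SE 0.12) and 0.10 (SE 0.13). Without exercised WT replicate 3 these were 0.07 and -0.03, and without the 4 arrays described below for their pituitary signal -0.01 and -0.06.

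Tac2, the neurokinin B gene, has 1 probe (chr10:127168740-127168799, mm9). It read 13.66, 13.64 and 13.94 in WT mice, 13.60, 13.90 and 13.55 in KO mice, 13.70, 13.64 and 13.88 in exercised WT mice and 13.88, 13.65 and 14.01 in KE mice. The groups overlapped, and the 12 arrays spanned 0.46 log2 units. The differences ran from -0.06 (SE 0.13) in KO versus WT to 0.16 (SE 0.13) in KE versus KO.

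Npvf, whose peptides act on GnRH neurons and gonadotropes, was among the most variable members. Its probe at chr6:50602494-50602553 (mm9) read 10.98, 10.52 and 10.33 in WT mice, 11.37, 10.19 and 10.94 in KO mice, 10.58, 10.34 and 10.20 in exercised WT mice and 10.26, 10.48 and 10.19 in KE mice. KO replicates 1 and 2, from the same slide, were the highest and nearly the lowest of the 12 arrays. The KE versus KO difference of -0.52 (SE 0.27, 95% interval -1.13 to 0.08, adjusted p = 0.284, limma) was the largest of any of the 9 genes in size, and it was -0.26 without KO replicate 1 and -0.85 (adjusted p = 0.323) without KO replicate 2.

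Kiss1r, the kisspeptin receptor gene, varied least. Its probe at chr10:79384869-79384928 (mm9) read 9.27, 9.32 and 9.34 in WT mice, 9.35, 9.31 and 9.50 in KO mice, 9.41, 9.48 and 9.45 in exercised WT mice and 9.41, 9.45 and 9.38 in KE mice. All exercised WT arrays lay above all WT arrays, as for 15.5% of tested probes, and so did all KE arrays, as for 16.4%. All 7 arrays of slide 2 lay above all 5 of slide 1, as did 10.4% of tested probes. KO replicate 3, an unexercised mouse on slide 2, had the highest value of all. The exercised WT versus WT difference was 0.14 (SE 0.06, unadjusted p = 0.0436, adjusted p = 0.182, limma) and -0.04 (SE 0.08) with the slide as a block.

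The second Kiss1r probe spans 1203 bases of the genome for its 60 bases, so its match crosses a gap. It read 5.77, 5.52 and 5.95 in WT mice, 5.75, 5.51 and 6.06 in KO mice, 5.80, 5.73 and 5.52 in exercised WT mice and 5.62, 5.68 and 5.38 in KE mice. The groups overlapped, and the KE versus WT difference was -0.19 (SE 0.16). With the slide block it was -0.62 (SE 0.24, unadjusted p = 0.0285, adjusted p = 0.962, limma), a value that depends on KO replicate 3, the only unexercised mouse on slide 2.

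Tacr3, the neurokinin B receptor gene, has 1 probe (chr3:134596904-134596963, mm9). It read 9.13, 9.51 and 9.40 in WT mice, 9.18, 9.34 and 9.31 in KO mice, 9.35, 9.32 and 9.79 in exercised WT mice and 9.20, 9.27 and 9.41 in KE mice. The groups overlapped, with exercised WT replicate 3 highest. The largest difference in size, KE versus exercised WT, was -0.19 (SE 0.14, adjusted p = 0.819, limma). It was -0.04 without exercised WT replicate 3 alone. Without the 4 arrays described below for their pituitary signal, which include that replicate, it was 0.00. That replicate also had the highest log2 summed signal of 5 striatum marker genes (13.82) and the lowest of 6 arcuate marker genes (13.88). The cause of the shift was not tested.

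Esr1 has 7 probes, of which 2 were detected on all arrays, 1 on KE replicate 2 only and 4 on none. The probe at chr10:5341167-5341226 (mm9) read 10.09, 10.14 and 10.01 in WT mice, 9.87, 10.30 and 9.93 in KO mice, 9.79, 9.91 and 9.89 in exercised WT mice and 10.10, 9.96 and 10.03 in KE mice. All 3 exercised WT arrays lay below all WT arrays, as 22% of tested probes did, and also below all KE arrays, as was the case for 8.26%. The exercised WT versus WT difference was -0.21 (SE 0.10, 95% interval -0.44 to 0.02, unadjusted p = 0.0659, adjusted p = 0.22, limma), which was -0.06 (SE 0.18) with the slide block. The KE versus exercised WT difference, within 1 slide, was 0.16 (SE 0.10, unadjusted p = 0.141, adjusted p = 0.8, limma).

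The other detected Esr1 probe, at chr10:5343056-5343115, did not repeat this order. Its exercised WT mean was 9.01 ± 0.15 and its KE mean 9.01 ± 0.04 (SD, n = 3), a difference of 0.00 (SE 0.11). The exercised WT versus WT difference of that probe was -0.08 (SE 0.11).

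Pgr, which estrogen is known to induce through Esr1, has 4 probes. The probe at chr9:8968492-8968551 (mm9) read 9.66, 9.64 and 9.63 in WT mice, 9.78, 9.88 and 9.57 in KO mice, 9.61, 9.60 and 9.55 in exercised WT mice and 9.73, 9.56 and 9.48 in KE mice. KO replicates 1 and 2 and KE replicate 1 were the highest, and all exercised WT arrays lay below all WT arrays, as 22% of tested probes did. The KO versus WT difference was 0.10 (SE 0.09, adjusted p = 0.851, limma) and, with the slide block, 0.19 (SE 0.07, unadjusted p = 0.0306, adjusted p = 0.871, limma). Without the 4 arrays described below for their pituitary signal, which include KO replicates 1 and 2, the difference without the block was -0.07. That leaves KO replicate 3, on slide 2, as the only KO array against WT arrays of slide 1. The loss of the 4 arrays and the change of slide cannot be told apart in that value.

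The second Pgr probe, at chr9:8903618-8903677, had its 3 lowest values in the KE mice. It read 5.34, 5.37 and 5.29 in WT mice, 5.19, 5.56 and 5.13 in KO mice, 5.18, 5.29 and 5.12 in exercised WT mice and 4.76, 5.06 and 5.05 in KE mice. All KE arrays lay below all arrays of each other group, which 27.6% of tested probes did against WT, 15.4% against KO and 11.3% against exercised WT. The difference was -0.37 (SE 0.12, unadjusted p = 0.0102, adjusted p = 0.0799, limma) against WT, -0.34 (SE 0.12, adjusted p = 0.179) against KO and -0.24 (SE 0.12, adjusted p = 0.767) against exercised WT. With the slide block the first of these became -0.13 (SE 0.20) and the second -0.17 (SE 0.16, unadjusted p = 0.294, limma). Without the same 4 arrays the KE versus KO difference was -0.07, with KO replicate 3 as the only KO array. The first Pgr probe gave -0.06, -0.16 and 0.00 for these 3 differences. Without KO replicate 3 the KE versus KO difference was -0.42 for the second probe (adjusted p = 0.036, limma) and -0.24 for the first (adjusted p = 0.0396), in a fit where 24.4% of all tested probes had an adjusted p under 0.05, and all KO arrays left in that fit lie on the other slide than the KE arrays.

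The third Pgr probe lies in the opposite orientation (chr9:8898921-8898980, minus strand, where the other 3 lie on the plus strand), and the strand it reads was not tested. It was well above background on 10 of 12 arrays, all but WT replicates 2 and 3. Its log2 signal was 4.28 ± 0.52 in WT mice, 4.71 ± 0.18 in KO mice, 4.74 ± 0.27 in exercised WT mice and 4.40 ± 0.24 in KE mice (SD, n = 3). Its swimming by genotype interaction was -0.77 (SE 0.34, unadjusted p = 0.0496, adjusted p = 0.643, limma), a value that rests on WT arrays of which only 1 of 3 was above background, and with the slide block the unadjusted p was 0.0828. The fourth Pgr probe was above background on KE replicate 1 only and was not tested.

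**Figure D2:**
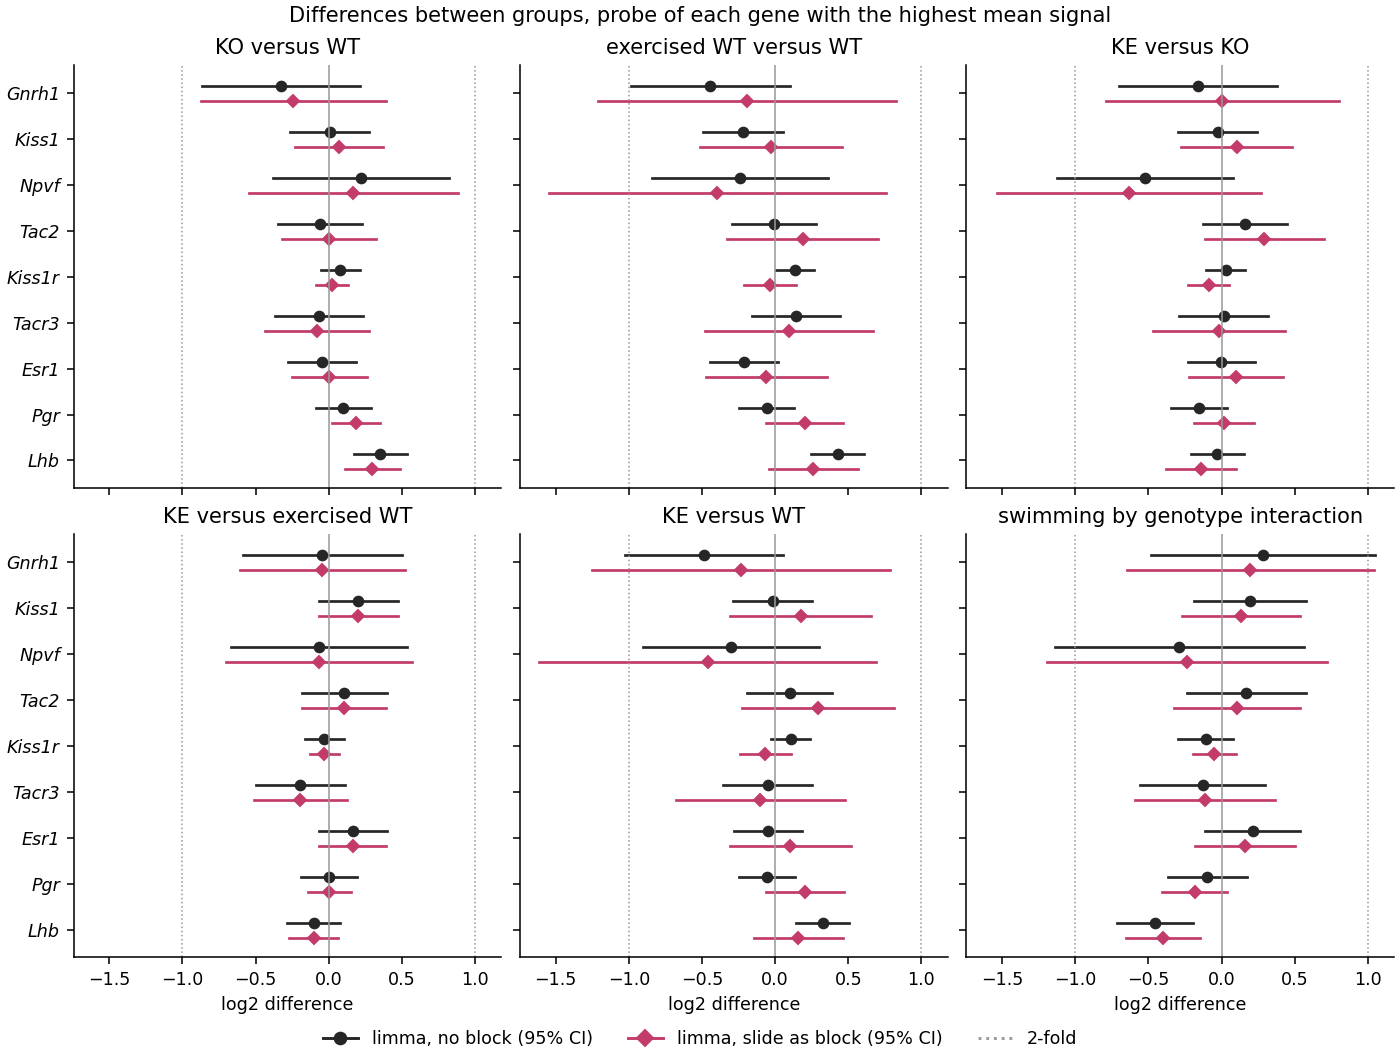
Log2 differences of the probe with the highest mean signal for each gene in the 5 comparisons and the swimming by genotype interaction, black circles without and pink diamonds with the slide as a block, with 95% confidence intervals and dotted lines at a 2-fold change. Lhb has the only interval that excludes 0 in KO versus WT without the block (0.17 to 0.53), and the intervals of exercised WT versus WT and KE versus WT widen with the block.

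Lhb encodes the beta subunit that makes luteinizing hormone specific, and its known site of production is the pituitary gonadotrope rather than the hypothalamus. It is the member whose groups differed most in relation to their spread, so its probe is printed here, as the array annotation gives it, followed by the bases before its RefSeq start. The probe lies at chr7:52676746-52676958 (mm9, plus strand), spanning 213 bases for its 60 bases, so it crosses a gap of 153 bases. The upstream stretch is chr7:45420696-45420945 of GRCm38.p6, plus strand, and the capitals mark short motifs of factors known to drive Lhb in gonadotropes.
Lhb probe: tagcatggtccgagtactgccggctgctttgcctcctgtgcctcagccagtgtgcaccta
Lhb upstream: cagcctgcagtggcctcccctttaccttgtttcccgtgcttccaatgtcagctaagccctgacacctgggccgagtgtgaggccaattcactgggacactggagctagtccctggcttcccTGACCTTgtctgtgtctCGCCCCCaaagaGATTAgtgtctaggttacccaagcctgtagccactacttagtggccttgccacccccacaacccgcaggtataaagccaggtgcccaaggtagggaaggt

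The motifs, searched on both strands, were TGACCTT, a site of steroidogenic factor 1 (Nr5a1), CGCCCCC, a core of Egr1 sites, and GATTA, a core of Pitx1 sites. They began 129, 112 and 100 bases before the start. Over the 32851 promoters of the RefSeq table, cut to the same 250 bases before the start, 4.08% held the first, 14.8% the second, 19.8% the third and 0.0487% all 3. Of the 8 member genes with a promoter in the table, Lhb was the only one with either of the first 2 and the only one with all 3, and Tac2 also held GATTA. The motifs were chosen for factors known to drive Lhb, so finding them before Lhb tests nothing. A match of letters is a description and not a site in use.

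The Lhb probe read 7.13, 7.18 and 7.14 in WT mice, 7.55, 7.34 and 7.61 in KO mice, 7.48, 7.66 and 7.59 in exercised WT mice and 7.51, 7.37 and 7.55 in KE mice. The 3 WT arrays lay below all 9 others, and KO, exercised WT and KE overlapped. The KO versus WT difference was 0.35 (SE 0.08, unadjusted p = 0.00155, adjusted p = 0.846, limma), a 1.28-fold higher signal. All KO arrays lay above all WT arrays for 3.6% of tested probes.

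The exercised WT versus WT difference of Lhb was 0.43 (SE 0.08, unadjusted p = 0.000396, adjusted p = 0.0933, limma) and the KE versus WT difference 0.32 (SE 0.08, unadjusted p = 0.00267, adjusted p = 0.0622, limma). All exercised WT arrays lay above all WT arrays for 15.5% of tested probes and all KE arrays for 16.4%. Within slide 1, KO replicates 1 and 2 exceeded the WT arrays by 0.30 (SE 0.08, unadjusted p = 0.0061, adjusted p = 0.783, limma with the slide as a block). These KO arrays are both among the 4 arrays described below for their pituitary signal, and no WT array is. Genotype and that signal cannot be told apart in this difference. With the slide block the exercised WT versus WT difference was 0.26 (SE 0.13, unadjusted p = 0.0835, limma). The KE versus WT difference was 0.16 (SE 0.13, unadjusted p = 0.267, limma), and only KO replicate 3 ties the slides in that fit. Without KO replicate 3 the adjusted p was 0.00591 in exercised WT versus WT and 0.0151 in KE versus WT (limma), as 18% and 23.2% of all tested probes then had an adjusted p under 0.05, and slide and swimming cannot be told apart.

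In knockout mice the KE versus KO difference of Lhb was -0.03 (SE 0.08), and its sign changed between alternatives. The interaction was -0.45 (SE 0.12, unadjusted p = 0.00282, adjusted p = 0.477, limma) and -0.40 (SE 0.11, unadjusted p = 0.00602) with the slide block. At an unadjusted p of at most 0.05 in this direction there were 4.18% of all tested probes. The second Lhb probe was not well above background on any array, with values between 1.81 and 1.90.

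The pituitary lies against the hypothalamus, so 12 anterior pituitary marker genes were read beside Lhb. Cga, the alpha subunit gene shared by the pituitary glycoprotein hormones, stood at 11.51 and 10.58 in KO replicates 1 and 2, 10.72 in exercised WT replicate 3 and 10.87 in KE replicate 1. On the other 8 arrays it lay between 1.85 and 5.90, and of these only WT replicate 2, with 5.90, was above background. Pitx1, a transcription factor of pituitary cells, followed Cga, at 8.23 to 8.87 on those 4 arrays and at 1.82 to 3.94, not above background, on the other 8.

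Fshb, the follicle-stimulating hormone subunit gene, lay between 4.78 and 7.12 on the 4 arrays with high Cga and between 1.85 and 4.92 on the rest, where WT replicate 2 was the only one above background. One of the 2 probes of Tshb, the thyroid-stimulating hormone subunit gene, was above background on the same 4 arrays only. Gh, the growth hormone gene, and Pou1f1, the factor of growth hormone and prolactin cells, were not above background on any array, and Prl was so on 3 arrays. Over the list, 3 of 12 genes were detected on all arrays, 6 on some and 3 on none. The log2 of its summed signal ranged from 10.46 to 11.41 in WT mice, 11.20 to 12.46 in KO mice, 10.87 to 11.70 in exercised WT mice and 10.67 to 11.94 in KE mice.

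On slide 2 Lhb did not follow Cga. On slide 1 the arrays with high Cga, KO replicates 1 and 2, had the highest Lhb, 7.55 and 7.34. The WT arrays read 7.13 to 7.18, highest on WT replicate 2, the only WT array with Cga above background. Genotype and pituitary signal cannot be told apart on slide 1. On the 4 arrays with high Cga Lhb lay between 7.34 and 7.59. It lay between 7.37 and 7.66 on KO replicate 3, exercised WT replicates 1 and 2 and KE replicates 2 and 3. On these arrays Cga and Pitx1 were at background. Without the 4 arrays with high Cga, an alternative chosen after the markers were seen, the Lhb difference was 0.46 in KO versus WT, 0.42 in exercised WT versus WT (adjusted p = 0.0401, limma, with 7.6% of all tested probes under 0.05) and 0.31 in KE versus WT. That fit leaves KO replicate 3 as the only KO array, assumed to vary like the other groups. KO replicate 3 lies on slide 2 and the WT arrays on slide 1, so slide and genotype cannot be told apart in its KO versus WT difference. In whole tissue, more cells and more RNA per cell cannot be told apart. The detected Lhb probe read 7.13 to 7.66 over all arrays, and whether it reads only Lhb transcript was not tested. The arrays with high Cga included the 3 highest of the first Pgr probe, and the values of Kiss1, Tacr3 and Pgr that move without these arrays are given with those genes.

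**Figure D3:**
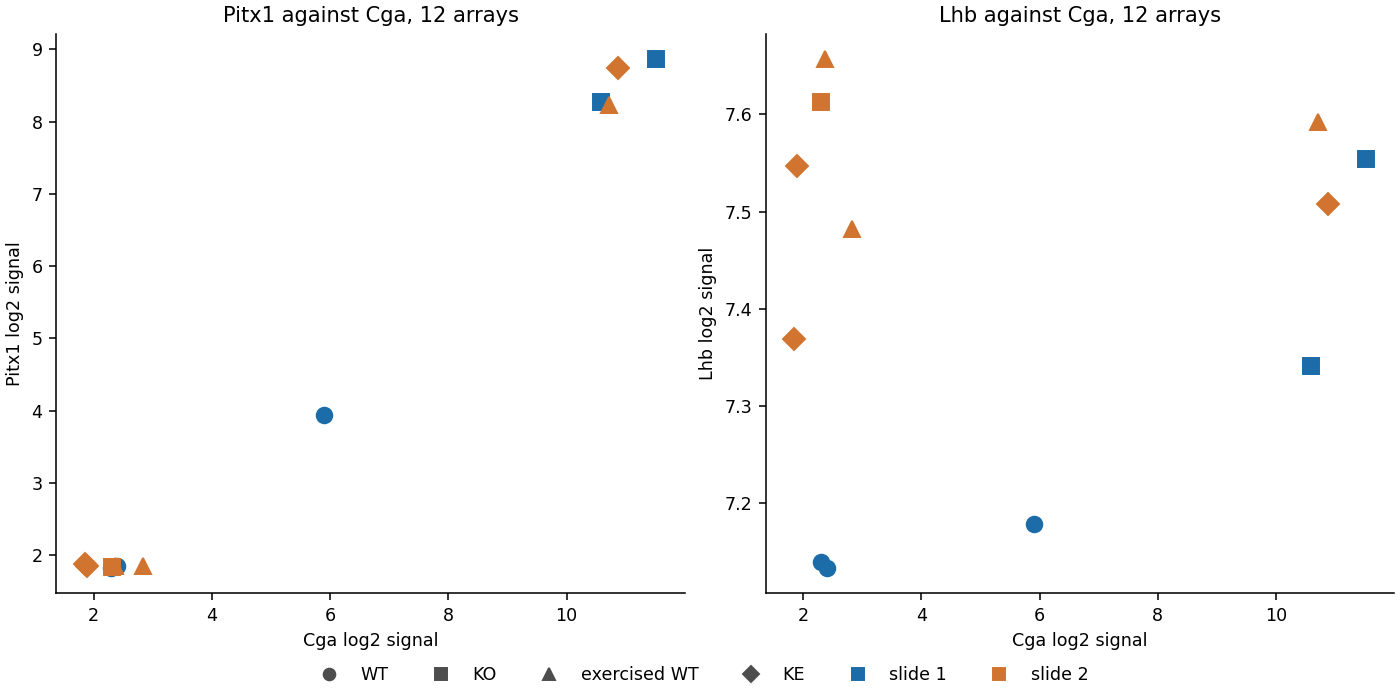
Log2 signal of Pitx1 (left) and of the detected Lhb probe (right) against that of Cga on the 12 arrays, with the marker shape for the group and the color for the slide. Pitx1 is above 8 only on the 4 arrays with Cga above 10, whereas Lhb lies between 7.34 and 7.66 on the KO, exercised WT and KE arrays at either end of the Cga axis and below 7.2 on the 3 WT arrays.

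All 6 genes with several probes had their highest mean signal at the probe nearest the 3′ end, by the coordinates and strand of the array annotation. In all, 13 of 22 member probes were detected on all 12 arrays, 4 on some and 5 on none. For the 4 genes with 2 probes detected on every array, the probes were correlated over the 7 arrays of slide 2. Those arrays come from KO, exercised WT and KE mice and group means were kept, so r and its p also hold group differences. Pearson's r was 0.802 for Kiss1 (exact permutation p = 0.0512, Spearman's rho 0.714, p = 0.0881, Benjamini-Hochberg adjusted p = 0.143 and 0.352 over 4 genes), and 0.473 without the 2 arrays farthest from the median, so it rests in part on those. For Kiss1r r was 0.705 (exact permutation p = 0.0716, rho 0.536, p = 0.236, adjusted p = 0.143 and 0.403), and -0.203 without the 2 farthest arrays, and for Esr1 0.434 (exact permutation p = 0.322, rho 0.464, p = 0.302, adjusted p = 0.322 and 0.403), and -0.135 without the farthest. For Pgr r was -0.515 (exact permutation p = 0.233, rho 0.179, p = 0.713, adjusted p = 0.311 and 0.713), and 0.701 without the farthest. None of the 4 correlations passed the threshold at this number of arrays.

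**Figure D4:**
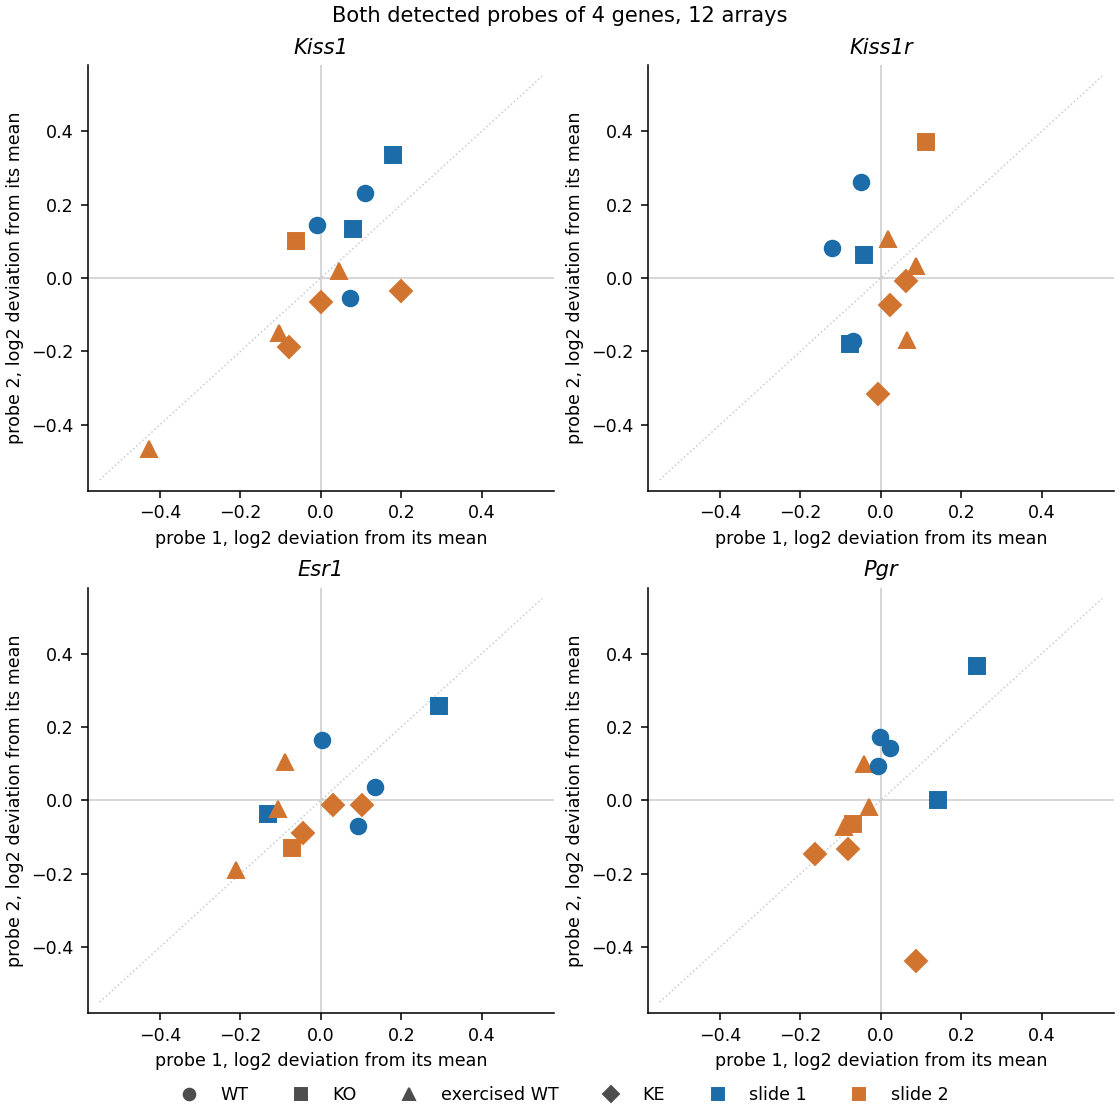
Log2 deviation of the second detected probe from its mean over 12 arrays against that of the first, for Kiss1, Kiss1r, Esr1 and Pgr, with the marker shape for the group, the color for the slide and a dotted line of equality. For Kiss1, exercised WT replicate 3 lies at the lower left, low on both probes, and the other points scatter around the line. KE replicate 1 of Pgr lies far below the line.

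Pairs of genes that share neurons or signals were compared over the same 7 arrays, 7 pairs in all, again with group means kept. The largest r in size were 0.542 for Kiss1 and Esr1 (exact permutation p = 0.192, rho 0.643, p = 0.139), 0.501 for Kiss1 and Pdyn (exact permutation p = 0.259, rho 0.25, p = 0.595) and -0.495 for Tac2 and Pdyn (exact permutation p = 0.249, rho -0.429, p = 0.354), each with an adjusted p of 0.603 for r. Kiss1 and Tac2, made in the same arcuate neurons, gave -0.181 (exact permutation p = 0.723, rho -0.393, p = 0.396). Tac2 and its receptor Tacr3 gave 0.364 (exact permutation p = 0.474, rho 0.5, p = 0.267), Esr1 and Pgr 0.229 (exact permutation p = 0.634, rho -0.0357, p = 0.963) and Kiss1 and Npvf 0.101 (exact permutation p = 0.816, rho 0.107, p = 0.84). The adjusted p of these 4 pairs was 0.816 for r, and the adjusted p for rho lay between 0.692 and 0.963 over all 7. Without the 2 arrays farthest from the median of the first gene, r turned sign for every pair but Kiss1 with Esr1 (0.218) and Kiss1 with Tac2 (-0.37).

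As a description of likeness, the 3 gene symbols whose signal followed each member most closely over the 12 arrays, after the mean of each slide was subtracted, were listed among 35201 probes. For Gnrh1 they were Ankrd34b (r = 0.95), Pard3 and Nek7, for Kiss1 Unc45a (r = 0.95), Btg3 and Abhd14b, and for Npvf Cnih3 (r = 0.95), Wnt7a and Cox6a2. For Tac2 they were Prdx3 (r = 0.94), Grik2 and Tbr1, for Tacr3 Arap2 (r = 0.97), Dsel and Syndig1, and for Kiss1r Odf2l (r = 0.91), 2210008F06Rik and Rnf123. For Esr1 they were Hsd3b7 (r = 0.91), Ppp1r32 and 1600002D24Rik, for Pgr Krt8 (r = 0.94), D630039A03Rik and Corin, and for Lhb Polr2d (r = 0.97), Itpr2 and Zfp248. None of these is another member of the 9, and the arrays share slide, scan and amplification.

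A wider list of 38 genes of the reproductive axis was counted beside the members: other peptides and receptors of the circuit, further sex steroid and prolactin receptors, steroid synthesis, receptor cofactors, genes of GnRH neuron development and puberty timing, and gonadotropin subunits and their receptors. All 38 had a probe and 33 were tested. Cyp17a1 encodes the steroid 17-hydroxylase and 17,20-lyase needed to make androgens. It was the only gene of the list past the screening criterion. It passed, higher, in KE versus KO (1 of 33 beside 1.21% of all tested probes) and KE versus WT (1 of 33 beside 2.74%). No gene had an adjusted p under 0.05. At an unadjusted p of at most 0.05, 1 gene was higher and 2 lower in KO versus WT (5.47% of all tested probes), 2 higher and 4 lower in exercised WT versus WT (25.9%), and 3 higher and 2 lower in KE versus KO (21.1%). KE versus exercised WT had 2 genes higher and 0 lower (6.71%), the interaction 3 and 0 (7.76%), and KE versus WT 4 and 6 (30.4%).

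Cyp17a1 read 7.28, 7.02 and 7.52 in WT mice, 7.28, 7.09 and 8.71 in KO mice, 8.29, 8.20 and 8.10 in exercised WT mice and 9.23, 8.40 and 8.65 in KE mice. All arrays of slide 2 lay above all arrays of slide 1, as did 10.4% of tested probes. KO replicate 3, which did not swim, lay among the exercised mice. The KE versus WT difference was 1.48 (SE 0.38, adjusted p = 0.0622, limma) and the KE versus KO difference 1.07 (SE 0.38, adjusted p = 0.18). With the slide as a block they were -0.05 (SE 0.36) and 0.05 (SE 0.28). Within slide 2 the KE versus exercised WT difference was 0.56 (SE 0.38), and with the block 0.56 (SE 0.20, unadjusted p = 0.02, limma).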

How the data were processed

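Normalized data and scanner files of 12 single-color Agilent arrays were used. The authors deposited, per array, the intensity of each spot from Agilent Feature Extraction 10.7.1.1 (background subtracted, per the file headers, with flags for outlier and saturated spots and for signal well above background), and a table of log2 values that the authors had quantile-normalized over all arrays in GeneSpring. The authors' own fold changes and p-values, in 4 further deposited tables, were left aside, as were the 24 per-sample columns in them.

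From the scanner intensity, non-control spots were taken, outlier spots were left out (between 97 and 233 per array), log2 was taken, spots with the same probe were averaged, and the 12 arrays were then quantile-normalized together. Saturated spots numbered 0. The values correlate with the authors' table at r = 1 on every array. The share of spots well above background ran from 61.6% to 67.9%.

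A group-means model of all 12 arrays was run in limma 3.58.1 (R 4.3.3), and p-values were adjusted by Benjamini-Hochberg over 35230 probes. Of a gene, the probe named first is the one with the highest mean signal. Replicate numbers shared between groups did not pair the arrays: the deviations of 18 same-numbered pairs correlated between -0.19 and 0.24, 4 of them above 0.1. Every member was named, and genes of the wider list only where the probe passed the criterion. The members and lists were chosen with earlier results of these data known. Alternatives were 75th percentile scaling, normexp with an offset of 50, the authors' table, other detection filters, the methods' t-test, the 2 groups compared alone, slide and replicate number as blocks, outlier spots kept, and each array left out. The fit was tested on simulated data. The array annotation (mm9) gave the probe positions, and the upstream sequence is from RefSeq (GRCm38.p6).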

Additional observations from a re-analysis of the deposited data

Results flagged for a closer look

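The swimming by genotype interaction of 2 member probes had an unadjusted p of at most 0.05 (limma). It sets the trained minus untrained difference of knockout mice against that of wild-type mice, where swimming and slide coincide. It was -0.45 for the detected Lhb probe (SE 0.12, unadjusted p = 0.00282, adjusted p = 0.477, limma) and -0.77 for the Pgr probe of opposite orientation (SE 0.34, unadjusted p = 0.0496, adjusted p = 0.643, limma). The Pgr value rests on WT arrays of which 1 of 3 was above background, lay between -1.06 without WT replicate 1 and -0.17 with normexp over 20 alternatives, and had an unadjusted p of 0.0828 with the slide block. Neither held after adjustment over all tested probes. For Lhb it lay between -0.57 and -0.22 over the 21 alternatives in which it could be computed. With the slide block the Lhb value was -0.40, in a fit where both KO arrays of slide 1 have high Cga. Slide, pituitary signal and a response that depends on genotype cannot be told apart in the Lhb values.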

How the results depend on the processing

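The count of member probes past the screening criterion was 0 in all 6 tests under every alternative run, with the exception that leaving out WT replicate 1 gave 1 in the interaction (the Pgr probe of opposite orientation, -1.06, where 0.792% of all tested probes passed), so that leaving out 1 array in turn gave 0 to 1. The count with an adjusted p under 0.05 was 0, and became 1 in exercised WT versus WT and 1 in KE versus WT with the methods' t-test (Lhb, beside 4.6% and 14% of all tested probes), 1 and 2 in a fit of the groups compared alone (Lhb, and in KE versus WT the second Pgr probe, beside 8.35% and 17.6%), and 1 and 1 without the 4 arrays with high Cga (beside 7.6% and 9.72%). Leaving out 1 array in turn gave 0 to 1 in exercised WT versus WT, 0 to 2 in KE versus KO and 0 to 2 in KE versus WT, and the highest counts all came without KO replicate 3, where 18%, 24.4% and 23.2% of all tested probes passed. With the replicate number as a replicate block the Lhb difference in KO versus WT was 0.35 (unadjusted p = 0.00298, limma). No member count at the criterion or at an adjusted p under 0.05 moved with that block. The Lhb difference from WT kept its sign in every alternative, between 0.25 and 0.46 in KO, 0.20 and 0.47 in exercised WT, and 0.16 and 0.38 in KE mice, the lowest with normexp or the slide block. In KE versus KO it turned sign, from -0.15 without the 4 arrays with high Cga to 0.04 with 75th percentile scaling, both far from the threshold. The cause of these shifts was not tested.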
